A study of Mus musculus with 150 samples.

Results

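DNA copy number was described for 9 genes of the KEAP1 and NRF2 oxidative stress pathway (Keap1, Nfe2l2, Cul3, Gclc, Gclm, Slc7a11, Txnrd1, Nqo1 and Hmox1) in single mouse lung tumour cells. The genes were chosen as a pathway, by their symbols and not by their levels, and each was found through the bins of the deposited log2 ratio table that list its symbol. They took up 10 of the 5331 bins of the table, and all 10 were among the 5149 bins kept. Slc7a11 was listed in 2 neighbouring bins and every other gene in 1. The cells came from 3 tumours, called T1, T7 and T9, with 50 cells each, and all 3 tumours grew in 1 mouse. That mouse was of the KP group taken 30 weeks after induction, and its large tumours were dissected out singly before the tissue was broken up. The strains given for the study have a mixed C57BL/6 x Sv129 background and carry Trp53flox/flox, which Cre recombinase deletes, with Rosa26LSL-tdTomato and Rosa26LSL-Luciferase as reporters that Cre switches on. Induction was by an adenovirus, either AdSPC-Cre, in which the surfactant protein C promoter limits Cre to cells such as alveolar type 2 cells, or AdCMV-FlpO, and the labels do not say which this mouse received. The alleles and the induction are therefore shared by all 3 groups, and neither untreated cells nor another mouse enter the comparison. The labels give the source as AT2 cells, a cell type that copy number data cannot check. The labels used here give neither the age and sex of the mouse nor the meaning of "ND".

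NRF2, the product of Nfe2l2, is a transcription factor that cells use against oxidants and electrophiles. In unstressed cells KEAP1 binds NRF2 and brings it to a CUL3 ubiquitin ligase, so that NRF2 is degraded, and oxidants acting on cysteines of KEAP1 let NRF2 escape. NRF2 then pairs with small MAF proteins at antioxidant response elements and turns on genes for glutathione synthesis, thioredoxin reduction, quinone and heme breakdown and NADPH supply. In lung adenocarcinoma, KEAP1 is known as a tumour suppressor that is often mutated or lost.

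The antioxidant response element is the sequence through which these genes answer to NRF2, and it is shown here to make plain what the pathway reads. Its core was searched as TGACNNNGC, on both strands, in the 250 bases before each start site of the RefSeq promoter table (GRCm38.p6). Promoters of 7 of the 9 genes matched in that table, and 3 of the 7 genes held a core, beside 11.5% of the 27025 genes in the table. These 7 genes have 9 start sites, of which 3 held a core, beside 10.2% of all 32851 start sites, in windows of the same length. The 3 matches are given 5′ to 3′ on the strand of the gene, with the core in capitals.
Nfe2l2: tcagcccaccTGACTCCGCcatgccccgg
Gclm: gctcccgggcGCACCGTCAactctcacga
Txnrd1: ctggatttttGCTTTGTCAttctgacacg
The Nfe2l2 core lies on the strand of the gene, 240 to 232 bases before its start, in chr2:75704885-75704913 of the minus strand. The Gclm core lies on the opposite strand to the gene, 134 to 126 bases before the start, in chr3:122245413-122245441 of the plus strand. That start is the one of the RefSeq promoter, and it lies downstream of the first base given for Gclm below. The Txnrd1 core, also on the opposite strand, lies 92 to 84 bases before 1 of its 3 start sites, in chr10:82859104-82859132 of the plus strand. The match is a description of the letters in these windows. The copy number bins, with a median length of 499.55 kb, do not measure such elements, and the copy number of a gene gives neither its expression nor the activity of NRF2.

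A level here is the deposited log2 ratio of the bin that lists the gene, minus the median over the autosomal bins of the same cell, with the median of both bins for Slc7a11. A level of 0 thus means the typical copy number of that cell, whatever its ploidy. A gene was counted as gained in a cell at 0.32 or more and as lost at -0.42 or less, the log2 of 2.5 and of 1.5 copies over 2. In a diploid genome 1 copy more would give 0.58 and 1 copy less -1. A gene was called gained or lost in a tumour when at least 20% of the kept cells passed the threshold. Of the 150 cells, 145 were kept, 47 in T1, 48 in T7 and 50 in T9. Sequenced bases per kept cell had a median of 97.7 Mb (20.5 to 170.1) in T1. The median was lower in T7, 69.3 Mb (24.6 to 140.3), and lowest in T9, 56.7 Mb (43.3 to 82.1). The noise between neighbouring bins was nevertheless highest in T1, with a median of 0.19 against 0.15 in T7 and 0.13 in T9. Single bins are noisy, so levels were also taken as the median over a window of 11 bins, the bin of the gene and 5 kept bins on each side. Window values are given for part of the levels. Each group is 1 tumour, so its cells cannot stand as replicates, and tumours were not tested against each other. Intervals for shares of cells are exact Clopper-Pearson 95% intervals, and they cover counting error only.

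The calls differed between the tumours, apart from the loss of Gclc, which T1 and T9 shared. In T1, 2 of the 9 were called gained (Cul3 and Slc7a11) and 2 lost (Keap1 and Gclc), against 28.9% and 25.5% of all bins. In T7, 1 was called gained (Nfe2l2) and 1 lost (Txnrd1), against 13% and 2.41% of all bins. In T9, 1 was called gained (Keap1) and 1 lost (Gclc), against 7.11% and 9.89% of all bins. With windows of 11 bins, the calls of T7 and T9 were on the same genes, against 12.7% gained and 1.61% lost of all windows in T7 and 6.49% and 6.54% in T9. The windows of T1 kept only the loss of Gclc among these genes, with 1 gained (Gclm) and 2 lost (Gclc and Txnrd1), against 17% and 18.5% of all windows. With 9 genes, 1 gene is already a share of 11.1%, so counts of 1 or 2 genes are near the background and are no result about the pathway as a whole. The median level over the 9 genes in T1, T7 and T9 was -0.01, -0.01 and -0.03, beside -0.01, -0.02 and -0.00 over all bins.

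**Figure D1:**
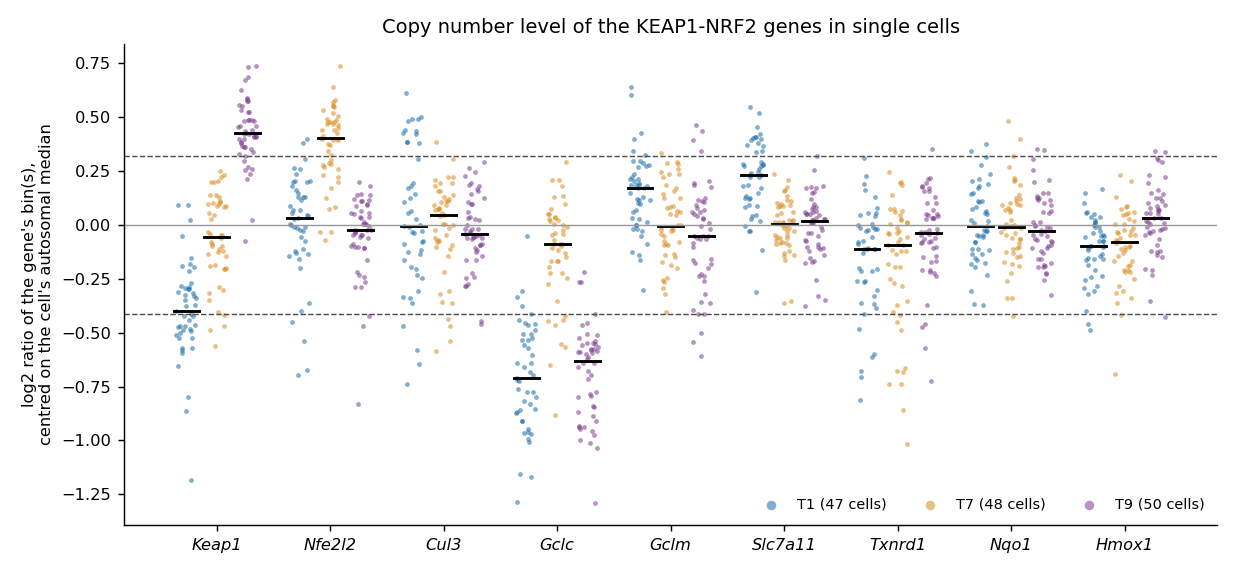
Level of each of the 9 genes in each kept cell (points, coloured by tumour) on the centred log2 scale, with the median of each tumour as a black bar and the gain and loss thresholds as dashed lines. Most T9 cells lie above the gain line for Keap1, most T7 cells above it for Nfe2l2, and most T1 and T9 cells below the loss line for Gclc, while on this corrected scale the medians of Nqo1 and Hmox1 lie near 0 in all tumours.

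Among the regulators, Keap1, the adaptor that holds NRF2 for ubiquitination, was gained in T9. The gene lies at chromosome 9, 21229730 to 21239332 (GRCm38), wholly inside 1 bin from 20878564 to 21376180 that lists 29 other gene names. Its level in T9 ran from -0.07 to 0.74 with a median of 0.43 (SD 0.16, n = 50 cells), a ratio of 1.34 to the typical copy number. In T7 the range was -0.56 to 0.25 with a median of -0.05 (SD 0.21, n = 48 cells), and in T1 it was -1.19 to 0.09 with a median of -0.40 (SD 0.23, n = 47 cells). The highest T1 cell thus lay below the T9 median, and the ranges of T9 and T1 met only between -0.07 and 0.09. Keap1 was gained in 41 of 50 T9 cells (82%, interval 68.6 to 91.4), in 0 of 48 T7 cells and in 0 of 47 T1 cells. By the exact interval, a count of 0 allows a share of up to 7.40% in T7 and 7.55% in T1. In T9 the median level of Keap1 was above that of 96.7% of all bins.

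The window around Keap1 gave a sharper gain in T9 and no loss in T1. Its T9 median was 0.45 (SD 0.14, range -0.14 to 0.94), with 45 of 50 cells gained. In T1 the single bin was past the loss threshold in 22 of 47 cells (46.8%, interval 32.1 to 61.9), 8 of the 47 lay within 0.05 of that threshold, and only 1 of 47 windows was lost, at a window median of -0.21 (SD 0.10). The T1 bin of Keap1 lay below its flanking bins by a median difference of -0.20 (SD 0.23), whereas in T9 that difference was -0.01 (SD 0.13). The loss of Keap1 in T1 was thus seen in the single bin and not in the windows. The direction in T1 also turned when the ratio was taken from the deposited depth alone, without the correction in the log2 table. On that scale the medians of Keap1 were 0.43 in T1, 0.33 in T7 and 0.68 in T9, and the gained cells made up 63.8%, 52.1% and 100% of the tumours. T9 had the highest level on both scales, and the part of the correction in the levels of T1 and T7 was not tested.

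**Figure D2:**
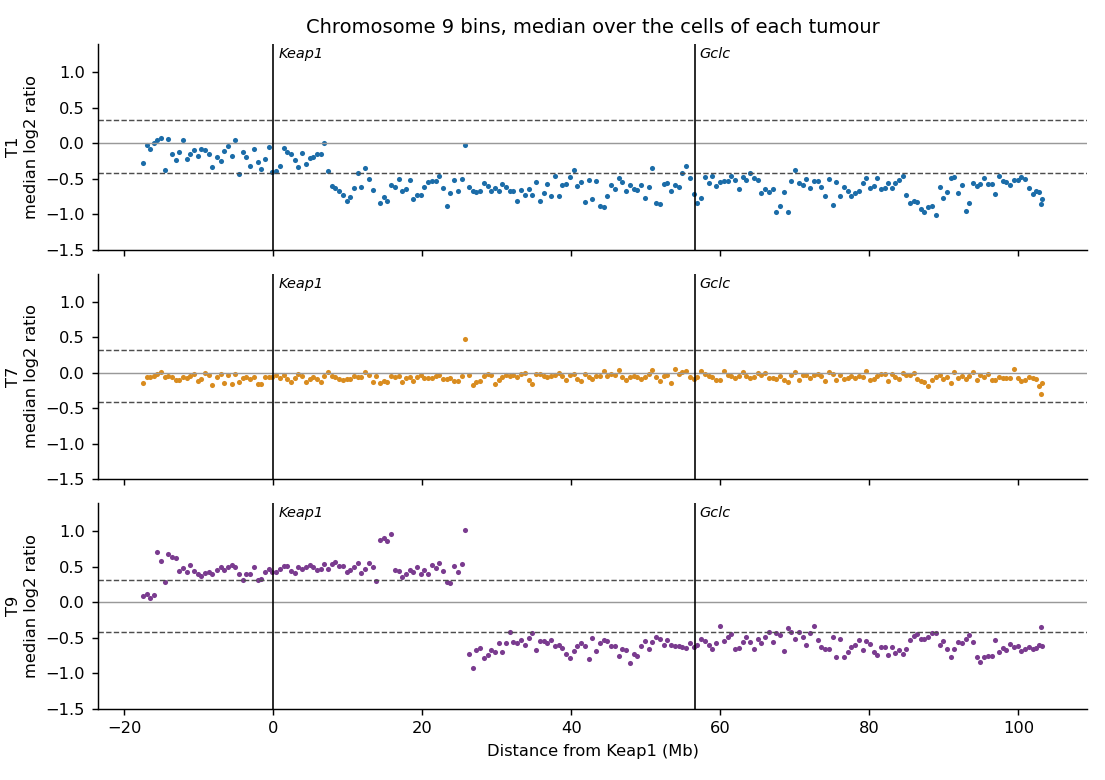
Median log2 ratio over the cells of each tumour for every kept bin of chromosome 9, by distance from Keap1 in Mb, with the positions of Keap1 and Gclc as vertical lines and the thresholds as dashed lines. In T9 the bins around Keap1 lie at about 0.47 and those around Gclc, 56.5 Mb further on, at about -0.61, whereas in T1 both regions lie below 0 and in T7 both lie near 0 on this corrected scale, on which the Keap1 bin of T1 and T7 stands lower than on the ratio from depth.

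On the T9 profile, the median over cells, Keap1 lay in a gained stretch of chromosome 9 from 5949801 to 35309466 at a level of 0.47. The gain went on through a peak of 0.81 (35309467 to 37797553) and a stretch at 0.47 up to 47252283. From 47252284 the profile was lost, at -0.73 up to 51233222 and at -0.61 from 51233223 to 80938245, the stretch that holds Gclc. The T1 profile had its first step at 28342823, which is 7.10 Mb beyond Keap1. Keap1 lay before that step at -0.17, and the stretch after it was at -0.59. In T7 the stretches of Keap1 and Gclc were at -0.07 and -0.05. In T9 the start of chromosome 9 with Keap1 and the later part with Gclc thus had opposite directions, in T1 they differed in degree, and in T7 both were near 0, all on the corrected log2 scale.

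Nfe2l2, which encodes NRF2 itself, was gained in T7. The gene lies at chromosome 2, 75675513 to 75704663, inside 1 bin that lists 10 other gene names. Its T7 levels ran from -0.07 to 0.74 with a median of 0.40 (SD 0.18, n = 48 cells). In T1 the levels ran from -0.69 to 0.40 with a median of 0.03 (SD 0.25, n = 47 cells), and in T9 from -0.83 to 0.20 with a median of -0.02 (SD 0.19, n = 50 cells). The T7 median equalled the highest T1 level to 2 decimals and was above every T9 cell. Nfe2l2 was gained in 32 of 48 T7 cells (66.7%, interval 51.6 to 79.6), against 2 of 47 in T1 and 0 of 50 in T9. By the exact interval, a share of up to 7.11% remained possible in T9. Of the 48 T7 cells, 7 lay within 0.05 of the gain threshold. The ratio from depth alone gave the same share of T7 cells, 66.7%.

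The window around Nfe2l2 in T7 had a median of 0.45 (SD 0.21) and was gained in 36 of 48 cells. The gain was not local to the gene. The T7 profile was at 0.41 from 59120642 to 80098768, the stretch of Nfe2l2, and at 0.35 and 0.31 on either side of it, and the bins of chromosome 2 as a whole had a median of 0.39. In T1 the window stood higher than the bin, at 0.24 (SD 0.17) with 9 of 47 cells gained, and the Nfe2l2 bin lay below its flanks by a median difference of -0.22 (SD 0.20). In T9 the window was lost in 3 of 50 cells and gained in 1, with a range of -0.78 to 0.34 around a median of -0.00.

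Cul3, the scaffold of the ubiquitin ligase that KEAP1 serves, had no shared change in T7 or T9. The gene lies at chromosome 1, 80264923 to 80340690. Its levels in T7 ran from -0.59 to 0.38 with a median of 0.04 (SD 0.22, n = 48 cells), and in T9 from -0.46 to 0.29 with a median of -0.04 (SD 0.17, n = 50 cells). T1 cells were spread more widely, from -0.74 to 0.61 around a median of -0.01 (SD 0.33, n = 47 cells), and they held gains in 12 cells (25.5%, interval 13.9 to 40.4) beside losses in 4. By single bins this SD of 0.33 was the highest of the 9 genes in the 3 tumours. By windows it was 0.23, under the 0.27 of Txnrd1 in T7. On the corrected table the T1 cells thus differed in both directions around a median near 0. The ratio from depth put that T1 median at -0.27. Over windows, T1 gains fell to 2 cells and losses stayed at 4. Gained and lost cells were present at once in T1, so the call of a gain describes a minority of the tumour.

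The balance of Keap1 against Nfe2l2 in the same cell favoured Keap1 in T9 by bin, window and depth ratio, while in T7 and T1 it depended on the scale. On the corrected log2 table, the T9 level of Keap1 minus that of Nfe2l2 ran from 0.03 to 1.37 with a median of 0.47 (SD 0.24), and Keap1 was higher in 50 of 50 cells. In T7 the difference ran from -0.97 to 0.15 with a median of -0.45 (SD 0.28), and Nfe2l2 was higher in 46 of 48 cells. In T1 it ran from -1.39 to 0.40 with a median of -0.42 (SD 0.33), and Nfe2l2 was higher in 43 of 47 cells. Windows gave medians of 0.44 in T9, -0.48 in T7 and -0.46 in T1, with Keap1 higher in 49 of 50, 0 of 48 and 3 of 47 cells. On the ratio from depth alone, which was applied to this difference after its values were seen, the T9 median was 0.77 (SD 0.27) with Keap1 higher in 50 of 50 cells. There the T1 median turned to 0.13 (SD 0.36) with Keap1 higher in 33 of 47 cells, and the T7 median shrank to -0.07 (SD 0.29) with Nfe2l2 higher in 27 of 48 cells. Only the T9 balance therefore kept its direction and lay beyond its spread over cells on both scales. Keap1 also exceeded Cul3 in T9, by a median of 0.41 (SD 0.23), in 49 of 50 cells, and in T1 that difference was -0.43 (SD 0.41) on the corrected table and 0.62 (SD 0.50) on the ratio from depth. These differences are between copy number levels of 2 places in a cell, and the protein balance was not measured.

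**Figure D3:**
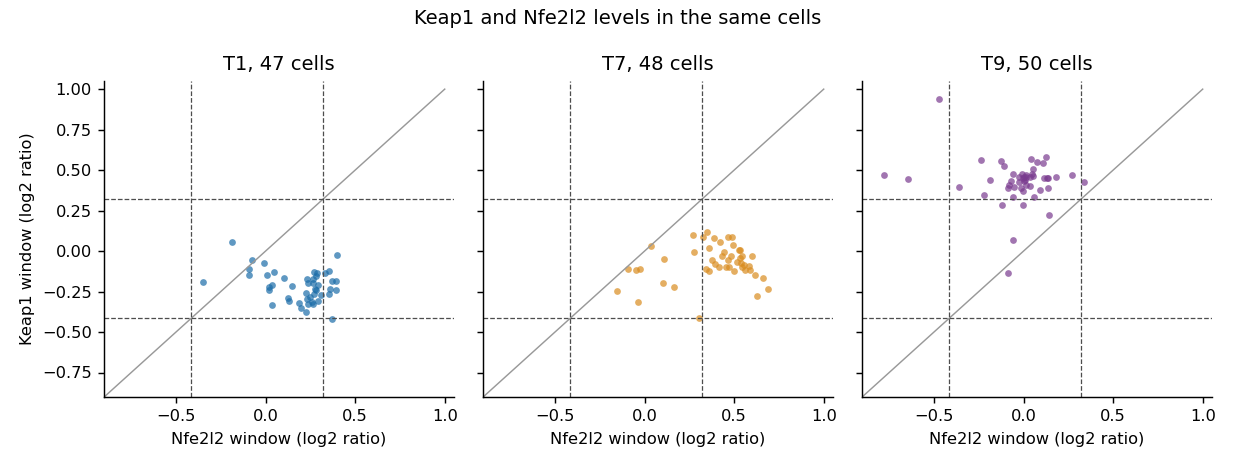
Window level of Keap1 (vertical axis, log2 ratio) against that of Nfe2l2 (horizontal axis, log2 ratio), 1 point per kept cell, with the line of equal levels in grey and the thresholds dashed. T7 cells lie below the line of equal levels in 48 of 48 cells and T9 cells above it in 49 of 50, on the corrected table. On the ratio from depth of single bins, the median difference of T7 shrank to -0.07 and that of T1 changed side, to 0.13.

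Single T9 cells departed from the rest. Cell 180116 had the highest Keap1 window of the tumour, 0.94, together with a lost Nfe2l2 window of -0.47. Cell 180109 had neither the Keap1 gain nor the Gclc loss, with windows of -0.14 and -0.13. These cells were picked out after their values were seen.

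Among the glutathione genes, Gclc had the lowest median levels of the 9 genes in T1 and T9. Gclc encodes the catalytic subunit of glutamate-cysteine ligase, the enzyme of the rate-limiting step of glutathione synthesis, and lies at chromosome 9, 77754535 to 77794489. In T1 its levels ran from -1.29 to -0.05 with a median of -0.71 (SD 0.25, n = 47 cells), and in T9 from -1.29 to -0.22 with a median of -0.63 (SD 0.22, n = 50 cells). In T7 they ran from -0.88 to 0.29 with a median of -0.09 (SD 0.24, n = 48 cells). The T1 and T9 ranges largely coincided, and the T7 median lay above the highest T9 cell. Gclc was lost in 42 of 47 T1 cells (89.4%, interval 76.9 to 96.5), in 46 of 50 T9 cells (92%, interval 80.8 to 97.8) and in 8 of 48 T7 cells (16.7%, interval 7.48 to 30.2). Its median ratio was 0.612 in T1 and 0.645 in T9. Only 3.30% of all bins had a lower median level in T1, and 1.51% in T9.

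The loss of Gclc held over windows, at -0.57 (SD 0.13) in T1 and -0.60 (SD 0.12) in T9, with 41 of 47 and 46 of 50 cells lost. In T7 the window median was 0.00, and 2 of 48 cells were lost. The lost stretch of the T1 profile that holds Gclc reached from 36802319 to 106433989 at -0.62. Its loss in T1 and T9 was therefore that of a large part of chromosome 9, and the medians stayed above the -1 that 1 lost copy of 2 would give. Within T9 the gain of Keap1 and the loss of Gclc were met in the same cells. The Keap1 level exceeded that of Gclc by a median of 1.15 (SD 0.28), and by at least 0.19, in 50 of 50 cells. By windows, 44 of 50 cells had both changes, 1 the Keap1 gain only, 2 the Gclc loss only and 3 neither. In T1 the Keap1 window was higher than the Gclc window in 47 of 47 cells, by a median of 0.34 (SD 0.11).

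Gclm encodes the modifier subunit that raises the efficiency of the same enzyme, and it lies at chromosome 3, 122245487 to 122267215. Its level in T1 ran from -0.30 to 0.64 with a median of 0.17 (SD 0.18, n = 47 cells), and 6 cells were gained (12.8%, interval 4.83 to 25.7). In T7 the median was -0.00 (SD 0.18, n = 48 cells; -0.41 to 0.34) and in T9 -0.05 (SD 0.24, n = 50 cells; -0.61 to 0.46). The T1 median was higher than the other 2 by less than the SD over T9 cells, and the 3 ranges overlapped. Over windows T1 had 14 of 47 cells gained at a median of 0.28 (SD 0.14), and with this Gclm passed the criterion of 20%. T9 windows of Gclm were lost in 5 of 50 cells. Those 5 cells all had the Keap1 gain, which 45 of all 50 T9 cells had by windows. None of the 5 was among the 3 cells with a lost Nfe2l2 window, all 3 of which had the Keap1 gain too. Counts of 5 and 3 of 50 cells are too small to tell whether these losses exclude each other.

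The subunits of glutamate-cysteine ligase thus differed in level in T1 and T9. Gclc minus Gclm in T1 ran from -1.60 to -0.24 with a median of -0.89 (SD 0.33), and Gclc was lower in 47 of 47 cells. In T9 the difference ran from -1.75 to 0.19 with a median of -0.61 (SD 0.37), and Gclc was lower in 47 of 50 cells. In T7 the median was -0.17 (SD 0.28) for single bins and -0.00 (SD 0.18) for windows, so the single bin and the window differed there.

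Slc7a11 encodes the transporter subunit of system xc-, which imports the cystine that glutathione synthesis needs. It lies at chromosome 3, 50364936 to 50499087, and its level is the median of 2 bins. In T1 the levels ran from -0.31 to 0.55 with a median of 0.23 (SD 0.17, n = 47 cells), and 14 cells were gained (29.8%, interval 17.3 to 44.9). In T7 the median was 0.00 (SD 0.12, n = 48 cells; -0.36 to 0.24) and in T9 0.02 (SD 0.15, n = 50 cells; -0.38 to 0.32). Of the 47 T1 cells, 10 lay within 0.05 of the gain threshold, on either side of it. Windows gave 5 of 47 T1 cells gained at a median of 0.21, and the ratio from depth alone turned the T1 median to -0.10. The median of all bins of chromosome 3 in T1 was 0.18, near the levels of both Gclm and Slc7a11.

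**Figure D4:**
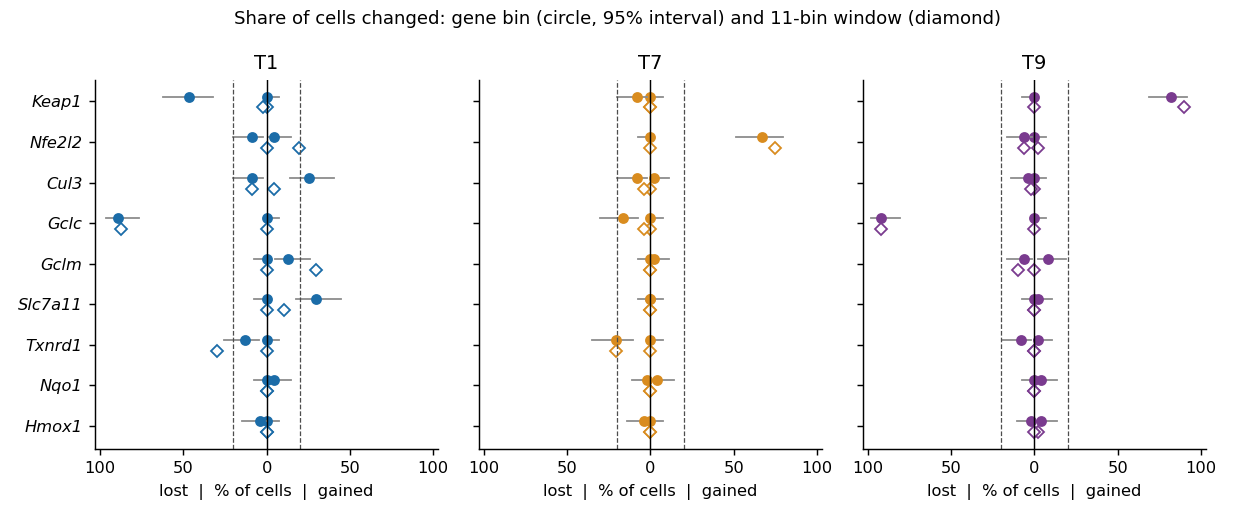
Share of cells in percent in which each gene was lost (to the left of 0) or gained (to the right), for single bins (circles, with exact 95% intervals) and windows of 11 bins (diamonds), by tumour, with the criterion of 20% as dashed lines. Circle and diamond lie together for Keap1 and Gclc in T9 and Nfe2l2 in T7, and far apart for Keap1 in T1, where 46.8% of bins but 1 of 47 windows were lost.

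Txnrd1, the cytosolic thioredoxin reductase, was lost in a minority of cells of T1 and T7. The gene lies at chromosome 10, 82833951 to 82897724. In T7 its levels ran from -1.02 to 0.25 with a median of -0.09 (SD 0.30, n = 48 cells), and 10 cells were lost (20.8%, interval 10.5 to 35). In T1 the range was -0.81 to 0.31 with a median of -0.11 (SD 0.25, n = 47 cells) and 6 cells lost, and in T9 it was -0.72 to 0.35 with a median of -0.04 (SD 0.21, n = 50 cells) and 4 cells lost. The ranges overlapped almost fully, although that of T7 reached lower. The ratio from depth turned the T1 median to 0.17. The T7 share stood just over the criterion of 20%, and with the stricter cell filter it was 14.6% of 41 cells. T7 windows were lost in 10 of 48 cells with a range of -0.98 to 0.15, and T9 windows in 0 of 50. In T1, windows were lost in 14 of 47 cells (median -0.21, SD 0.21), and the T1 profile of the whole of chromosome 10 was at -0.25. By windows, 9 of the 10 T7 cells that had lost Txnrd1 also had the Nfe2l2 gain, which 36 of all 48 T7 cells had.

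Nqo1 and Hmox1, the remaining targets, had no call in any of the 3 tumours by bin or window. Nqo1, a quinone reductase and a standard readout of NRF2, lies at chromosome 8, 107388225 to 107403205. Its median in T1 was -0.01 (SD 0.18, range -0.37 to 0.37). T7 had the same median, -0.01 (SD 0.19, range -0.42 to 0.48), and T9 was at -0.03 (SD 0.16, range -0.33 to 0.35). The 3 ranges almost coincided, and 2 cells were gained in each tumour. Hmox1, the inducible heme oxygenase, lies on the same chromosome at 75093618 to 75100593. Its median in T1 was -0.10 (SD 0.15, range -0.49 to 0.17). T7 was at -0.08 (SD 0.17, range -0.69 to 0.23) and T9 at 0.03 (SD 0.16, range -0.43 to 0.34), and again the ranges overlapped. No window of Nqo1 was past a threshold in any kept cell, and 1 window of Hmox1 was gained, in T9. In T1 the window medians were 0.04 for Nqo1 and 0.03 for Hmox1. By the mean of the stretch in each cell, the T1 medians were 0.15 for both genes. On the ratio from depth alone both genes stood higher, with Nqo1 at 0.44 in T1, 0.23 in T7 and 0.17 in T9 and Hmox1 at 0.46, 0.25 and 0.31, and both then passed the gain criterion in T1 and T7, and Hmox1 in T9. Their place near 0 thus holds for bins and windows of the corrected log2 table only.

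Counted cell by cell, the median number of the 9 genes past a threshold was 2 in T1 and T9 and 1 in T7. Cells without any changed gene numbered 5 of the 48 in T7, 1 of the 50 in T9 and 0 of the 47 in T1. Exactly 2 changed genes were found in 29 of 50 T9 cells, and exactly 1 in 25 of 48 T7 cells. T1 cells were spread from 1 to 6 changed genes. The mean for T1, T7 and T9 was 2.47, 1.35 and 2.20 of the 9 genes. Over all kept bins, the mean share past a threshold was 33.8%, 14.5% and 16.9% in the same order, which for 9 genes would be 3.04, 1.31 and 1.52. The T1 count was thus under this background, that of T7 near it, and that of T9 above it, with 2 of the 9 genes, Keap1 and Gclc, changed in most T9 cells. By single bins, 39 of 50 T9 cells had both the Keap1 gain and the Gclc loss.

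Levels of genes on different chromosomes had no common direction over cells, with rho of both signs in each tumour. Over the 33 such pairs the median Spearman rho was -0.06 in T1 (47 cells), -0.06 in T7 (48 cells) and -0.09 in T9 (50 cells). A median over both signs does not give the strength of single pairs. Levels of a cell share its library, depth and centring, so these values are descriptions. In T1 the lowest value was that of Cul3 with Hmox1, at -0.48 (windows -0.60), and the highest that of Cul3 with Gclm, at 0.41 (windows 0.33). Cul3 windows in T1 also ran against those of Nfe2l2 (rho -0.56), a pair chosen after its value was seen. In T7 the lowest was Gclm with Txnrd1 at -0.23 and the highest Keap1 with Nqo1 at 0.60, which was 0.29 over windows. Both Keap1 and Nqo1 fell with the sequenced bases of the T7 cells (rho -0.44 and -0.59), and the part of depth in their relation was not tested. By windows, Nfe2l2 with Nqo1 in T7 reached -0.65, against -0.21 by single bins, a pair chosen after its value was seen. The windows of Nfe2l2 and Nqo1 also went with the sequenced bases (rho 0.43 and -0.57), and the part of depth was not tested there either. In T9 the lowest was Cul3 with Gclm at -0.44 (windows -0.15) and the highest Nfe2l2 with Gclc at 0.36 (windows 0.14).

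Other genes of the pathway were read from a list of 39, of which 38 had a kept bin. In T1, 5 of the 38 were called gained (13.2%, against 28.9% of all bins) and 13 lost (34.2%, against 25.5%). In T7, 6 were gained (15.8%, against 13%) and 0 lost (against 2.41%). In T9, 0 were gained (against 7.11%) and 4 lost (10.5%, against 9.89%). By windows, 4 were gained and 6 lost in T1 (10.5% and 15.8%, against 17% and 18.5% of all windows). The window counts were 5 and 0 in T7 (13.2% gained, against 12.7%, and none lost, against 1.61%) and 0 and 3 in T9 (7.89% lost, against 6.54%, and none gained, against 6.49%). By single bins in T1, the gained share was under the background and the lost share over it, while by windows both were under it. In T9 no gene was gained, and the other shares of T7 and T9 were near the background. Genes of the list share chromosomes, and these departures were not tested. The median level of the 38 in T1, T7 and T9 was -0.19, -0.02 and 0.01, beside -0.01, -0.02 and -0.00 over all bins. In T7 and T9, most of the named genes lay on a chromosome that also holds a changed member. In T7, the genes gained in most cells were Cat (catalase), in 33 of 48 cells at 0.44 (SD 0.22), Blvra (biliverdin reductase), in 32 cells at 0.39 (SD 0.20), and Gss (glutathione synthetase), in 32 cells at 0.43 (SD 0.20), and all 3 lie on chromosome 2 with Nfe2l2. In T9, Gsta4, a glutathione S-transferase gene in the bin next to that of Gclc, was lost in 43 of 50 cells at -0.59 (SD 0.22), and Me1, the malic enzyme gene on the same chromosome, in 36 cells at -0.57 (SD 0.22). Gsta4 was also lost in 45 of 47 T1 cells, at -0.84 (SD 0.23).

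The remaining named genes of the list lay on chromosomes without a called member, Osgin1 on chromosome 8 with Nqo1 and Hmox1. Mafk, a small MAF partner of NRF2 on chromosome 5, was gained in 35 of 47 T1 cells at 0.47 (SD 0.23), with 22 windows gained. By the mean of its stretch in each cell, Mafk was gained in only 6 of the 47. All levels of the wider list are given on the corrected log2 table only. Mafg, another small MAF gene, on chromosome 11, was lost in 21 of 50 T9 cells at -0.38 (SD 0.23) and by windows in 42 cells at -0.57. In the thioredoxin group, whose member Txnrd1 was lost in a minority of T1 cells, Prdx1, which encodes a peroxiredoxin, had losses in 44 of 47 T1 cells at -0.86 (SD 0.29) and Txn1, the substrate of Txnrd1, in 43 cells at -0.69 (SD 0.26). Both lie on chromosome 4, and each was lost in 46 T1 cells by windows. Among the T1 gains were further Akr1b8, an aldo-keto reductase gene, and Osgin1, an oxidative stress induced growth inhibitor gene, each in 13 of 47 cells at 0.22 (SD 0.22) and 0.18 (SD 0.18).

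**Figure D5:**
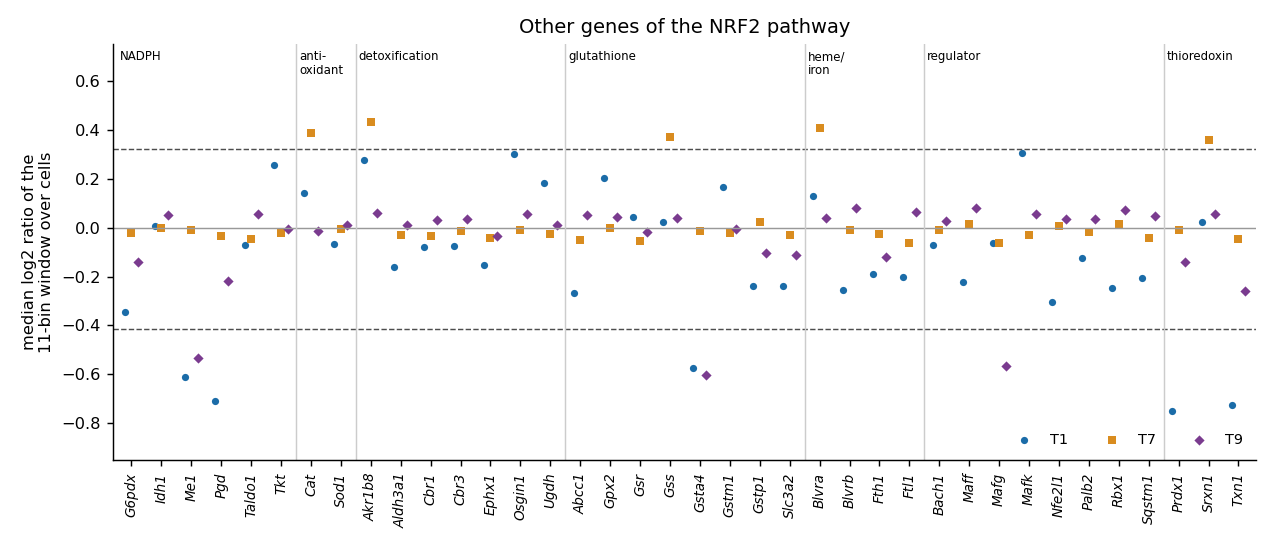
Median over cells of the 11-bin window level (log2 ratio) of 38 other genes of the pathway, grouped by role, with 1 symbol per tumour and the thresholds as dashed lines. T1 lies lowest at Prdx1, Txn1 and Pgd, T7 is raised at Akr1b8, Blvra, Cat, Gss and Srxn1, and T9 lies lowest at Gsta4, Mafg and Me1.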

How the data were processed

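Genomic DNA of 150 single cells was measured. Alignment used BWA 0.7.17 and the GRCm38 build, per the submitters' processing notes. The coverage signal of each bin, in mean reads per base, came from the deposited depth table. The deposited log2 ratio table gives a corrected log2 value per bin and cell, made with a tool and a reference not given in the sources used here. A deposited weight score was not used.

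Bins on the autosomes and X with depth and a finite ratio in at least 80% of cells were kept (5149). Cells were kept with at least 80% of autosomal bins covered and noise of at most 0.267, the median plus 3 scaled MADs. Each cell was centred on its autosomal median, so a doubling of the whole genome cannot be seen. Profiles were split into stretches of at least 5 bins by least squares. Python 3.11.15, numpy 2.4.6, pandas 2.3.3 and scipy 1.17.1 were used. The calls were tried on shuffled values with planted changes. That trial required windows and stretch means to recover the changes and set no such limit for single bins. No test between tumours was made. Alternatives were the window, the stretch mean, the bin at the gene's middle, the depth ratio, mode centring, other thresholds and other cell filters.

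All 9 genes were named. From the wider list, at most 3 genes per tumour and direction with the highest shares at 20% of cells or more were named, and of the pairs on different chromosomes the highest and lowest rho. The members and lists were chosen with earlier results of these data known. Gene positions are those of RefSeq for GRCm38.p6. An engineered allele of the strains is not reported here.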

Additional observations from a re-analysis of the deposited data

How the results depend on the processing

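Of the 6 counts of called genes, that of gained genes in T1 was the least stable. Its 2 became 1 with windows, with stretch means and with mode centring, 5 with the ratio from depth and 0 with the stricter thresholds of 0.45 and -0.70. The ratio from depth also gave 4 gained genes in T7 and 2 in T9. Stricter thresholds left 1 lost gene in T1 and 0 in T7, and the stricter cell filter, which kept 25, 41 and 49 cells of T1, T7 and T9, left 0 lost in T7. Looser thresholds of 0.20 and -0.25 gave 2 lost genes in T7 and 2 in T9. Among medians of genes called in a tumour, the sign changed for Keap1 in T1 (0.43) and Slc7a11 in T1 (-0.10) with the ratio from depth, and for Cul3 in T1 (0.056) with the stricter cell filter. Over all medians, called or not, the sign changed in 38 of 243 alternatives, 13 of them with the ratio from depth, 9 with stretch means and 8 with windows, and 35 of the 38 started within 0.1 of 0. From depth, Keap1 in T7 became 0.33, Txnrd1 in T1 0.17, Nqo1 0.44, 0.23 and 0.17 in T1, T7 and T9, and Hmox1 0.46 and 0.25 in T1 and T7. Of the differences between genes, alternatives added after seeing the data turned Keap1 minus Nfe2l2 in T1 to 0.13 and Keap1 minus Cul3 in T1 and T7 to 0.62 and 0.53 with the ratio from depth, and Keap1 minus Gclc in T7 to -0.046 with windows. The cause was not tested. With the stricter thresholds Keap1 was gained in 44% of T9 cells, Nfe2l2 in 39.6% of T7 cells, and Gclc was lost in 51.1% of T1 and 40% of T9 cells. In all, 229 of 243 alternative median levels moved by less than the SD over cells, and 354 of 486 alternative shares of cells stayed within their intervals. The 243 medians, also those read for sign changes, include 27 under looser and 27 under stricter thresholds, which a median does not use. For every gene but Slc7a11, the bin at the gene's middle was also its only bin. Such alternatives could not differ from the main value, so these totals overstate stability. No paired analysis was possible because the groups share no replicate numbers and no test was made. The depth behind a single bin was low: T9 cells had a median of 6.2 kb of sequenced bases in the Gclc bin.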
